A study of Mus musculus and blank sample with 91 samples.

Results

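Fecal bacteria were followed from onset to the chronic stage in mice with experimental autoimmune encephalomyelitis (EAE). The samples were all those labelled EAE at 14, 19 and 29 days post-immunization (dpi), which gave 17 of the 91 labelled samples in the series and 17 of the 88 that hold counts. EAE mice were female C57BL/6 mice that received a MOG peptide in complete Freund's adjuvant (CFA) under the skin, together with pertussis toxin. CFA mice of the same strain and sex received the adjuvant without peptide and, as far as the labels say, without pertussis toxin, and naive mice received neither. The difference between EAE and CFA mice therefore cannot be assigned to the peptide alone. The mouse number in the sample titles tied each animal to itself across days. Mice 588, 589, 591, 593 and 595 were sampled on all 3 days and mouse 594 at 19 and 29 dpi, which gave 5 pairs between 14 and 29 dpi and 6 pairs between 19 and 29 dpi. EAE mice carry other numbers before 14 dpi, so the samples taken 2 days before immunization were used only as unpaired levels.

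In EAE, used to model multiple sclerosis, immunization against a myelin protein brings on ascending paralysis. The bacteria in feces are read from the 16S rRNA gene, whose variable regions differ between taxa. Most of the mouse gut flora belongs to the Firmicutes, which ferment fiber and sugars, and to the Bacteroidetes, which break down complex polysaccharides, while Verrucomicrobia are represented in the gut by the mucin degrader Akkermansia. The abundances here are percents of the counts in a sample, so a higher share of one taxon lowers the shares of the others, and no absolute amount was measured.

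The clinical score recorded with each sample rises with the extent of paralysis. At 14 dpi the scores were 1, 3, 0, 0 and 3.5 in mice 588, 589, 591, 593 and 595. At 19 dpi they were 2, 2, 0, 4, 4 and 3.5 in mice 588, 589, 591, 593, 594 and 595, while those of 29 dpi were 2.75, 2.25, 3, 3.75, 3.5 and 3. Mouse 591 thus had a score of 0 on both earlier days, and neither it nor mouse 593 showed signs at 14 dpi, the day the study calls early onset. Total counts ran from 15279 to 102194 with a median of 76374. Mouse 589 at 14 dpi and mouse 595 at 19 dpi had the lowest totals, 17326 and 15279, and the fewest sequence variants, 20 and 18. The 17 samples held 239 distinct sequences once primer bases were trimmed, from 22 families and 61 genera.

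Firmicutes made up 75.1% ± 15.3 (SD, n = 5) of counts at 14 dpi, 78.5% ± 5.86 (n = 6) at 19 dpi and 88.9% ± 8.65 (n = 6) at 29 dpi. Between 19 and 29 dpi, Verrucomicrobiaceae fell and Erysipelotrichaceae rose in EAE mice, and these were the only 2 of 17 families called by edgeR's quasi-likelihood test with the mouse as a block (11.8%, Benjamini-Hochberg adjusted p under 0.05). Between 14 and 29 dpi, edgeR called 0 of 17 families (0%), with 5 below an unadjusted p of 0.05, and DESeq2 called 3 (17.6%), namely Verrucomicrobiaceae, Muribaculaceae and Eubacteriaceae. Between 14 and 19 dpi, edgeR called 0 of 17 (0%), with 1 below an unadjusted p of 0.05, and DESeq2 called 1 (5.88%). DESeq2 called 1 family (5.88%) for 29 against 19 dpi, too. At the genus rank edgeR called 0 of 51 in each of the 3 comparisons (0%). Unadjusted p-values below 0.05 numbered 7 for 29 against 14 dpi, 4 for 29 against 19 dpi and 3 for 19 against 14 dpi, where DESeq2 called 8 (15.7%), 5 (9.8%) and 5 (9.8%) genera.

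**Figure D1:**
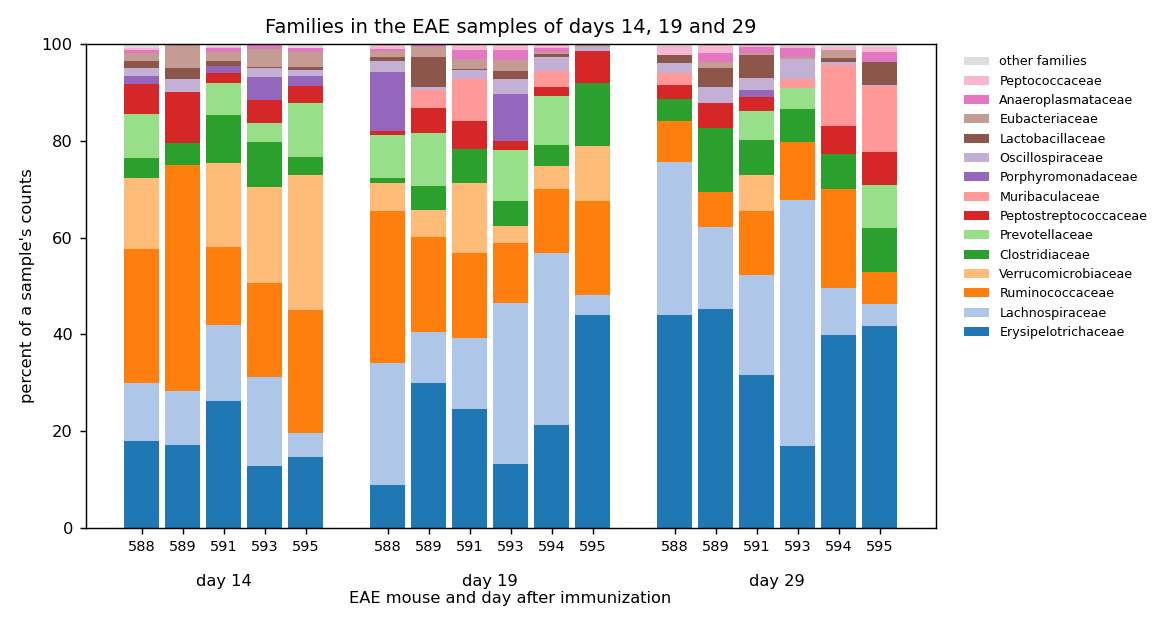
Percent of counts (vertical axis) by bacterial family in each of the 17 EAE samples, grouped by day and named by mouse. Akkermansia's family, Verrucomicrobiaceae, was listed in 4 of 5 mice at 14 dpi, 6 of 6 at 19 dpi and 1 of 6 at 29 dpi, while Erysipelotrichaceae averaged 17.7%, 23.7% and 36.5% of counts.

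Akkermansia, a bacterium that lives on intestinal mucin, was the only genus of Verrucomicrobiaceae counted. At 14 dpi it made up 14.6%, 0%, 17.4%, 19.9% and 27.8% of counts in mice 588, 589, 591, 593 and 595. At 19 dpi it made up 5.82%, 5.597%, 14.5%, 3.38%, 4.76% and 11.4% in mice 588, 589, 591, 593, 594 and 595, and at 29 dpi it was counted in mouse 591 alone, at 7.33%. The means were 15.9% ± 10.2 (SD, n = 5), 7.58% ± 4.36 (n = 6) and 1.22% ± 2.99 (n = 6). Akkermansia was lower at 29 than at 19 dpi in 6 of 6 mice, and lower than at 14 dpi in 4 of the 5 pairs, the fifth pair being mouse 589 with none listed on either day. Mouse 591, which kept Akkermansia, was also the mouse whose score had been 0 at both earlier days. A single mouse gives no test of that coincidence.

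The fall of the family between 19 and 29 dpi had an edgeR adjusted p of 0.0456. Between 14 and 29 dpi the adjusted p was 0.0620 for the family, and for the genus it was 0.0711 (29 against 14 dpi) and 0.0964 (29 against 19 dpi). The paired exact sign-flip permutation test between 19 and 29 dpi, two-sided on percents, gave p = 0.031, the smallest that 6 pairs allow, and an adjusted p of 0.531 over the families. The call for the family did not hold in fits without mouse 588, 589, 593, 594 or 595, where the adjusted p was 0.0716 or higher, and without mouse 591 it was 0.0204. With no replicate block, edgeR gave the family an adjusted p of 0.701, and with no block and 15 groups in the fit 0.889.

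Nearly all of Akkermansia was 1 sequence variant, named Akkermansia muciniphila in the deposited taxonomy. It was the only variant of 90 called (1.11%) both at 29 against 14 dpi, with an edgeR adjusted p of 2.09e-07, and at 29 against 19 dpi, with 7.39e-07. Both calls held without each mouse in turn and were lost with no replicate block, where edgeR's adjusted p was 0.116 and 0.686. The variant's percents were those of the family at 19 and 29 dpi and nearly so at 14 dpi. For 29 against 14 dpi, edgeR gave the log2 change an SE of 2.38 for the variant and 3.92 for the family. The lower p-values of the variant therefore rest on nearly the same counts and are not separate or stronger evidence of the fall. The cause of the smaller SE was not tested. Between 14 and 19 dpi edgeR called 0 of 90 variants (0%), with 3 below an unadjusted p of 0.05, and DESeq2 called 12 (13.3%). DESeq2 called 22 variants (24.4%) for 29 against 14 dpi and 12 (13.3%) for 29 against 19 dpi. A 0 here means that no variant was listed in the sample. Of 1669 variant counts above 0 before trimming, 5.93% were below 50, so small amounts were seldom listed.

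Control mice differed in this respect. Naive mice carried Akkermansia at 8.72% ± 8.34, 17% ± 8.52 and 16.9% ± 11.7 of counts at 14, 19 and 29 dpi (n = 6 each), and at 29 dpi the naive samples ran from 6.90% to 31.9%. CFA mice had none listed on any of these days, nor before immunization, so their change could not be compared with that of EAE mice in a model of log abundance. EAE mice had 3.00% ± 3.29 (n = 6) before immunization. From 14 to 29 dpi the mean change was -14.5 points ± 10.5 (n = 5) in EAE and 8.16 ± 16.4 (n = 6) in naive mice. The family was the only 1 of 21 whose change differed between EAE and naive mice by edgeR (4.76%), with an adjusted p of 0.0151 for 14 to 29 dpi and 0.0373 for 19 to 29 dpi. With no replicate block these edgeR values were 0.386 and 0.899. The first call was also lost without mouse 588, 593, 594 or 595 (0.0560 to 0.127), and the second held without mouse 591 alone. Akkermansia was the only 1 of 61 genera (1.64%), with edgeR adjusted p-values of 0.00234 and 0.0113. An exact permutation test on the change in percent, chosen after seeing the data, did not call the genus, with adjusted p-values of 0.176 and 0.931. The change between 19 and 29 dpi ran from -24.3 to 24.5 points among naive mice and from -11.4 to -3.38 points among EAE mice.

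**Figure D2:**
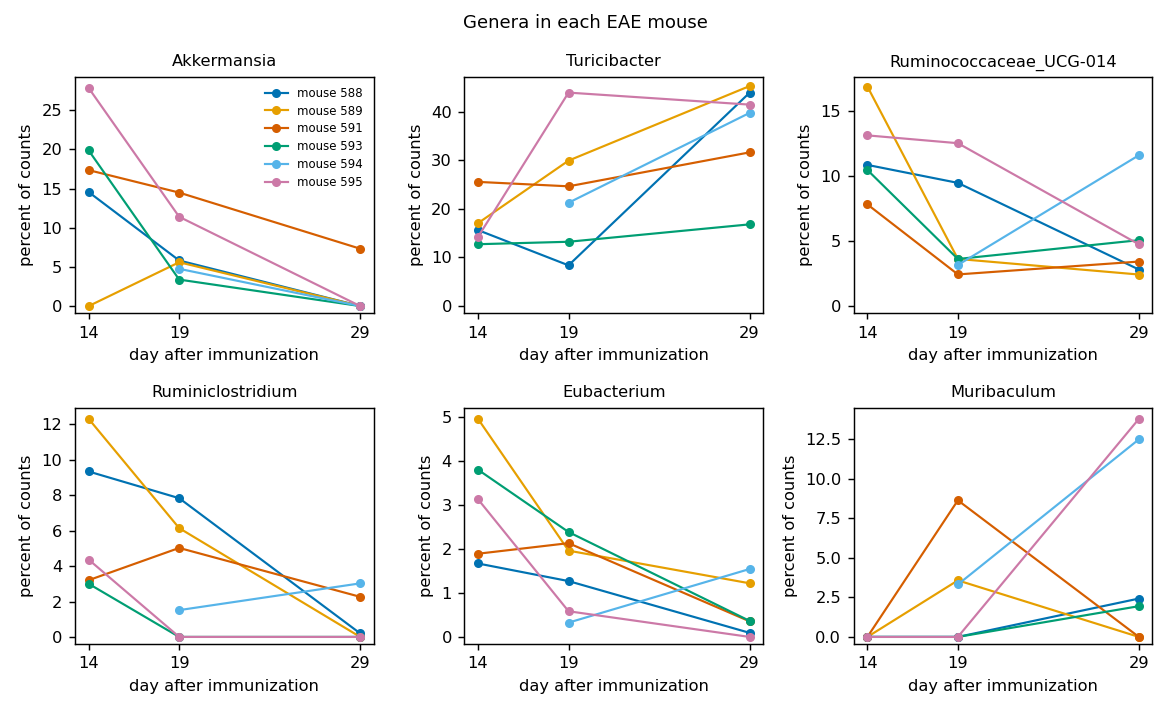
Percent of counts (vertical axes) against dpi for 6 genera in each EAE mouse, 1 line per mouse. Akkermansia is at 0 in 5 of 6 mice and Ruminiclostridium in 3 of 6 at 29 dpi, Turicibacter is higher at 29 than at 14 dpi in all 5 pairs, and Muribaculum is at 0 in every mouse at 14 dpi.

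Erysipelotrichaceae, a family of Firmicutes common in the small intestine of mice, stood at 17.9%, 17.1%, 26.2%, 12.7% and 14.6% of counts at 14 dpi in mice 588, 589, 591, 593 and 595. At 19 dpi it stood at 8.90%, 29.9%, 24.7%, 13.2%, 21.3% and 43.9% in mice 588, 589, 591, 593, 594 and 595, and at 29 dpi at 44.1%, 45.3%, 31.6%, 16.8%, 39.8% and 41.7%. The means were 17.7% ± 5.15 (SD, n = 5), 23.7% ± 12.5 (n = 6) and 36.5% ± 10.8 (n = 6). The family was higher at 29 than at 14 dpi in 5 of 5 mice and higher than at 19 dpi in 5 of 6, with mouse 595 as the exception. On the log2 scale, edgeR estimated 1.14 (SE 0.34, adjusted p = 0.0456) for 29 against 19 dpi and 1.01 (SE 0.36, adjusted p = 0.0808) for 29 against 14 dpi. The call for 29 against 19 dpi was lost in every fit that left out 1 mouse, where edgeR's adjusted p ran from 0.0716 to 0.245, and under every other alternative tried. The estimate was 0.69 under total-count scaling (edgeR adjusted p = 0.325) and 0.28 by DESeq2 (adjusted p = 0.739). The median log2 change of the 17 families was 0.44 under the main normalization and 0.12 under total-count scaling.

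Turicibacter, a spore-forming genus of this family, made up nearly all of it, and 1 variant named Turicibacter sanguinis averaged 17%, 23.5% and 36.4% of counts at 14, 19 and 29 dpi. The genus itself did not pass the test, with an edgeR log2 change of 1.06 (SE 0.39, adjusted p = 0.209) for 29 against 14 dpi and 1.16 (SE 0.37, adjusted p = 0.158) for 29 against 19 dpi. It changed by 18.8 points ± 12.5 (n = 5) from 14 to 29 dpi in EAE mice. CFA mice changed by 32.7 points ± 10.9 (n = 5) over the same days, from a mean of 0.845% to 33.6%, and naive mice by -7.84 points ± 12.6 (n = 6). A high share of Turicibacter at 29 dpi was seen in both groups given CFA, and whether CFA brought it was not tested. Before immunization Erysipelotrichaceae made up 18.1% ± 10.3 in EAE, 16.9% ± 8.03 in naive and 11.6% ± 5.59 in CFA mice (n = 6 each). CFA mice had 1.16% ± 1.43 of the family at 14 dpi (n = 6), and the naive samples of 29 dpi reached 35.4%. The change in Erysipelotrichaceae from 14 to 29 dpi was not called as different between EAE and naive mice (edgeR adjusted p = 0.979) or between EAE and CFA mice (edgeR adjusted p = 0.149).

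**Figure D3:**
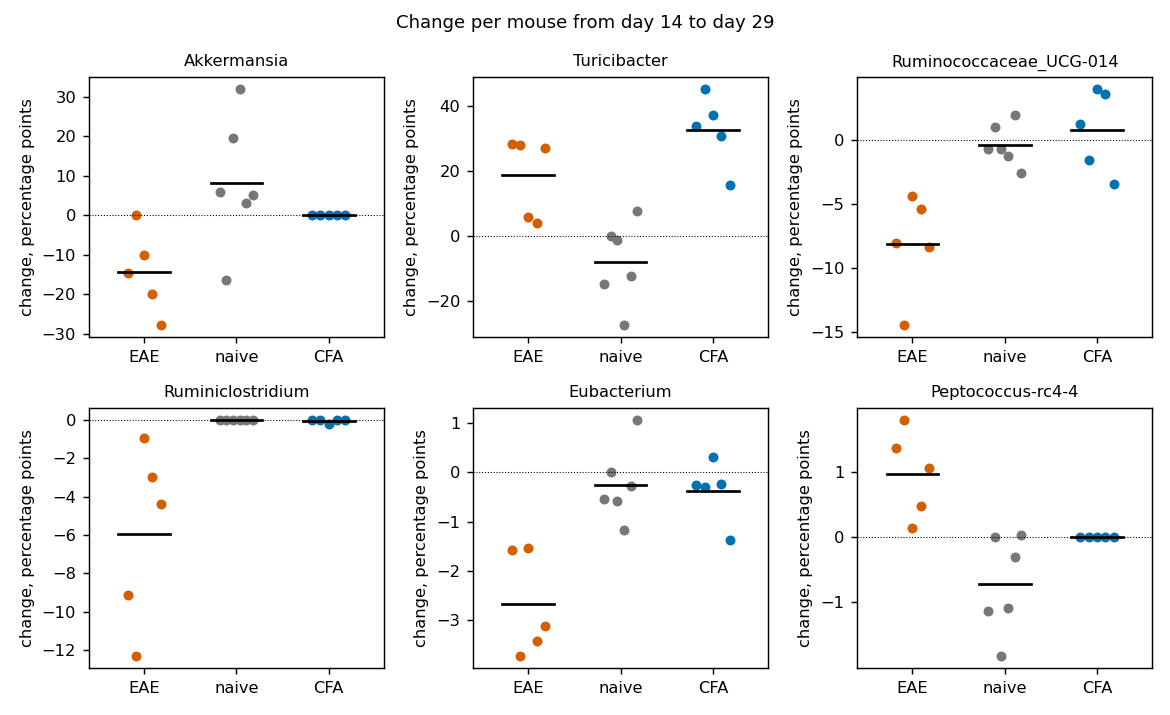
Change in percent of counts from 14 to 29 dpi (vertical axes, percentage points) per mouse for EAE, naive and CFA mice, with a bar at each group's mean. Turicibacter is higher in all 5 EAE and all 5 CFA mice, and Ruminococcaceae_UCG-014 is lower in all 5 EAE mice.

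Ruminococcaceae, fiber-fermenting Clostridia, moved in the other direction without passing the test. The family made up 27.7%, 46.6%, 16.1%, 19.4% and 25.5% of counts at 14 dpi in mice 588, 589, 591, 593 and 595. At 19 dpi its mean was 18.9% ± 6.87 (n = 6), and at 29 dpi it made up 8.51%, 7.21%, 13.3%, 11.9%, 20.4% and 6.57% in mice 588, 589, 591, 593, 594 and 595. The means at 14 and 29 dpi were 27.1% ± 11.8 (n = 5) and 11.3% ± 5.18 (n = 6), and the share was lower at 29 dpi in 5 of 5 pairs. The edgeR log2 change was -1.36 (SE 0.47, adjusted p = 0.0808), and for 29 against 19 dpi it was -0.36 (SE 0.43, adjusted p = 0.727). The mean at 29 dpi was still above the 6.30% ± 2.71 (n = 6) of EAE mice before immunization and the 3.94% ± 4.04 (n = 6) of naive mice at 29 dpi, levels that were not compared in a test.

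Within the family, 3 genera with high shares at 14 dpi had lower shares at 29 dpi in every pair. Ruminococcaceae_UCG-014, known mainly from sequences, averaged 11.8% ± 3.39 (n = 5), 5.80% ± 4.16 (n = 6) and 5.01% ± 3.39 (n = 6) at 14, 19 and 29 dpi. It was lower than at 14 dpi in 5 of 5 pairs at 19 dpi and again at 29 dpi, with edgeR adjusted p-values of 0.474 and 0.399. Ruminiclostridium, a genus with cellulose-degrading species, made up 9.34%, 12.3%, 3.21%, 3.00% and 4.37% of counts at 14 dpi in mice 588, 589, 591, 593 and 595. At 29 dpi it was listed in 3 of 6 mice, with 0.199% in mouse 588, 2.26% in mouse 591 and 3.03% in mouse 594 (edgeR adjusted p = 0.238 for 29 against 14 dpi). DESeq2 called it lower than at 14 dpi on both later days, with adjusted p-values of 0.0013 (19 dpi) and 4.4e-08 (29 dpi). The DESeq2 log2 estimates were -8.17 and -12.6, with none listed in some mice on each later day. These p-values therefore do not measure how strong the fall was. Before immunization Ruminiclostridium was not listed in any EAE mouse, and naive mice had none at 14 or 29 dpi. Ruminococcus, which holds cellulose and starch degraders, averaged 5.28% ± 5.18, 4.29% ± 1.18 and 1.58% ± 0.827, and mouse 589 alone had 14.5% at 14 dpi. It was lower at 29 than at 19 dpi in 6 of 6 mice, by 2.71 points on average. The exact sign-flip p was 0.031, the smallest that 6 pairs allow, and 0.750 after adjustment over 51 genera. It could have passed only if most of these genera sat at that smallest p.

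Eubacterium, here mostly a variant named after the cholesterol-reducing species E. coprostanoligenes, was the only genus counted in Eubacteriaceae. It made up 1.67%, 4.95%, 1.89%, 3.79% and 3.12% of counts at 14 dpi in mice 588, 589, 591, 593 and 595. At 29 dpi it made up 0.0930%, 1.22%, 0.355%, 0.364%, 1.54% and 0% in mice 588, 589, 591, 593, 594 and 595, lower in 5 of 5 pairs, with an intermediate mean of 1.44% ± 0.852 (n = 6) at 19 dpi. The edgeR adjusted p for 29 against 14 dpi was 0.415 for the genus and 0.250 for the family, which DESeq2 called (adjusted p = 0.0315). Peptococcaceae, represented by Peptococcus-rc4-4, went from 0.185% ± 0.205 (n = 5) at 14 dpi to 1.09% ± 0.6 (n = 6) at 29 dpi and was higher in 5 of 5 pairs, with an edgeR adjusted p of 0.493 for the family.

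Compared with naive mice, 4 genera had a change from 14 to 29 dpi whose values did not overlap between the groups, and the exact permutation test chosen after seeing the data gave each p = 0.00216, the smallest possible, and an adjusted p of 0.0330. These were 4 of 61 genera tested (6.56%), namely Ruminococcaceae_UCG-014, Ruminiclostridium, Eubacterium and Peptococcus-rc4-4. Naive mice had no Ruminiclostridium on either day, so its test set the EAE change against a fixed 0 and shows no difference in how the groups changed. Ruminococcaceae_UCG-014 changed by -8.13 points ± 3.92 (n = 5) in EAE and -0.383 ± 1.63 (n = 6) in naive mice. Eubacterium changed by -2.68 points ± 1.05 in EAE and -0.251 ± 0.752 in naive mice, and Peptococcus-rc4-4 by 0.966 ± 0.666 and -0.717 ± 0.744. At 14 dpi naive mice held at most 1.17% Eubacteriaceae and 6.64% Ruminococcaceae. None could therefore fall by the EAE mean of Eubacterium or Ruminococcaceae_UCG-014, and their non-overlap does not by itself show a different course over time. On the log2 scale edgeR put the Eubacteriaceae difference at -0.63 (unadjusted p = 0.899). Against CFA mice the same exact permutation test called 0 of the genera, with a lowest adjusted p of 0.0605. With 5 mice in each group its p cannot go below 0.00794. Over 61 genera, a few genera at that floor could not pass, so the 0 does not show that EAE and CFA mice changed alike. None of the 4 genera named above was called by edgeR against naive mice, where Akkermansia was the only genus of 61 called.

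At the family rank the exact permutation test called 2 of 21 families against naive mice for 14 to 29 dpi (9.52%), Eubacteriaceae and Peptococcaceae (adjusted p = 0.0227 for both). Against CFA mice it called these 2 families with Lactobacillaceae and Clostridiales_vadinBB60 for 14 to 29 dpi (4 of 21, 19%, adjusted p = 0.0417 each), and Lactobacillaceae and Verrucomicrobiaceae for 19 to 29 dpi (2 of 21, 9.52%, adjusted p = 0.0455 each). CFA mice had no Peptococcaceae or Verrucomicrobiaceae on these days, so for those families the test set the EAE change against a fixed 0 and shows no difference in how the groups changed. Eubacteriaceae made up at most 1.17% in naive and 2.29% in CFA mice at 14 dpi. No control mouse could therefore fall by the EAE mean of 2.68 points. For Lactobacillaceae it was the CFA mice that moved, by -14.04 points ± 8.70 (n = 5) from 14 to 29 dpi, while EAE mice moved by 1.83 ± 1.98. The CFA means were 25.7%, 36.6% and 9.97% at 14, 19 and 29 dpi. The smallest CFA changes were -5.16 points from 14 dpi and -11.5 points from 19 dpi. EAE mice held at most 2.34% and 6.34% on those days and could not fall as far, so the test was bound by their low level. Likewise, Clostridiales_vadinBB60 moved by -0.516 points ± 0.539 in CFA mice (n = 5) and was listed in only 1 of the 17 EAE samples, at 0.0972%. By edgeR the change against CFA mice was called for 0 of 21 families over either interval (0%), with 5 and 2 below an unadjusted p of 0.05. It was called for 0 of 61 genera (0%), with 8 and 3 below that level. DESeq2 was not run on these differences between treatments.

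Muribaculum, a Bacteroidetes genus that degrades polysaccharides and was the only genus counted in Muribaculaceae, was not listed in any EAE mouse at 14 dpi. At 19 dpi it made up 3.58% of counts in mouse 589, 8.64% in mouse 591 and 3.32% in mouse 594, with none in the other 3 mice. At 29 dpi it made up 2.43% in mouse 588, 1.95% in mouse 593, 12.5% in mouse 594 and 13.8% in mouse 595, with none in mice 589 and 591. Naive and CFA mice had none at 14, 19 or 29 dpi, and EAE mice had 2.44% ± 4.18 (n = 6) before immunization, listed in 2 of 6. The edgeR adjusted p for 29 against 14 dpi was 0.0808 for the family and 0.185 for the genus. By DESeq2 the genus was called higher than at 14 dpi on both later days, with adjusted p-values of 1.12e-10 (19 dpi) and 1.11e-18 (29 dpi). The DESeq2 log2 estimates were 22.7 and 30, which have no level at 14 dpi to rest on. These p-values therefore do not measure how strong the rise was. A sequence deposited under both the names Muribaculum and Barnesiella, chosen here after its values were seen, was listed in 5 of 6 mice at 29 dpi and in none at 14 or 19 dpi. Its edgeR adjusted p-values were 0.0837 against 14 dpi and 0.0642 against 19 dpi, and its DESeq2 adjusted p-values were 0.00629 and 0.0122. At 29 dpi it was all of the Muribaculum in mice 588 (2.43%) and 593 (1.95%), which had none of the variants seen at 19 dpi. In mouse 591 it made up 1.44% at 29 dpi, all of it under the name Barnesiella. With it counted as Muribaculum, mice 591 and 594 carried the genus at both 19 and 29 dpi.

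Prevotella, which ferments plant polysaccharides, was listed in 4 of 5, 4 of 6 and 3 of 6 mice at 14, 19 and 29 dpi, with means of 6.13% ± 4.36, 6.72% ± 5.26 and 3.22% ± 3.81. Barnesiella, in the Porphyromonadaceae, reached 12.3% in mouse 588 and 9.72% in mouse 593 at 19 dpi. Its 1.44% in mouse 591 at 29 dpi was the sequence also named Muribaculum, and the other mice had at most 0.00360% then. The main Prevotella sequence was deposited under both names, so Prevotella and Barnesiella cannot be told apart here. Under either name, that sequence averaged 8.09% ± 4.95, 10.4% ± 9.22 and 3.22% ± 3.81 at 14, 19 and 29 dpi. EdgeR called neither genus between any days, and DESeq2 called Barnesiella lower at 29 dpi than on either earlier day, with adjusted p-values of 0.00966 (14 dpi) and 0.00351 (19 dpi). DESeq2 called neither the genus Prevotella nor the sequence under either name between any days, so the Barnesiella call depends on the naming.

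A set of families stayed with the mice throughout. Erysipelotrichaceae, Lachnospiraceae, Ruminococcaceae and Clostridiaceae had at least 3 counts in each of the 17 samples and together made up 63.6% ± 11.3 of counts at 14 dpi, 69.1% ± 6.85 at 19 dpi and 78.3% ± 9.88 at 29 dpi. Of the 22 families counted, 14 were present on all 3 days, 3 only at 14 dpi, 2 only at 29 dpi, and 2 at 19 and 29 dpi but not at 14 dpi. At the genus rank 6 of 61 were in every sample, namely Turicibacter, Ruminococcaceae_UCG-014, Clostridium_sensu_stricto_1, Ruminococcus, Lachnospiraceae_NK4A136/Hungatella and Candidatus_Soleaferrea/Massilioclostridium. Of the 61 genera, 37 were present on all 3 days, 4 only at 14 dpi, 2 only at 19 dpi and 4 only at 29 dpi, while 7 were at 19 and 29 but not at 14 dpi and 2 were at 14 and 19 but not at 29 dpi.

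Clostridium_sensu_stricto_1, the genus of the type Clostridia and here a variant named C. celatum/disporicum, averaged 6.34% ± 2.96, 5.71% ± 4.09 and 7.98% ± 2.99 at 14, 19 and 29 dpi. Its family Clostridiaceae ranged from 1.04% to 13.3% over the 17 samples, and neither was called. In EAE mice before immunization the genus averaged 1.41% ± 1.07 (n = 6), and in naive mice at 29 dpi 1.73% ± 2.09 (n = 6). Lachnospiraceae, which includes many butyrate producers, spread most widely, from 4.10% to 50.9%. Its means were 12.5% ± 5.12, 20.5% ± 12.8 and 22.4% ± 16.7, with an edgeR log2 change of 0.48 (SE 0.40, adjusted p = 0.499) for 29 against 14 dpi.

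Within Lachnospiraceae, the genus deposited as Lachnospiraceae_NK4A136-Clostridium XlVa averaged 1.56% ± 1.35 (n = 5), 5.004% ± 4.797 (n = 6) and 5.27% ± 3.61 (n = 6) at 14, 19 and 29 dpi. It was higher at 29 than at 14 dpi in 5 of 5 pairs, by 4.06 points ± 2.92, and neither edgeR (adjusted p = 0.559) nor DESeq2 called it. Lachnospira, a pectin fermenter, was listed at 0.0832% in mouse 591 alone at 14 dpi and in 5 of 6 mice at 29 dpi, at up to 2.25%. It too was higher in 5 of 5 pairs, with an edgeR adjusted p of 0.329 and a DESeq2 adjusted p of 0.000143. DESeq2 also called Hungatella, whose means were 0.217%, 0.873% and 1.11%, higher at 29 dpi than on either earlier day, with adjusted p-values of 0.000294 (14 dpi) and 0.00786 (19 dpi). The DESeq2 log2 estimates were 12.1 for Lachnospira and 11.1 and 8.48 for Hungatella, the latter far beyond the difference between its means. These p-values do not measure how strong a rise was. Hungatella shares sequences with Lachnospiraceae_NK4A136/Hungatella in the deposited names, so its level depends on that naming. The remaining DESeq2 calls of genera were Ruminococcaceae_UCG-013, Anaerotruncus and Lachnospiraceae_NK4A136/COE1, which averaged at most 0.842%, 0.0901% and 0.466% on any of these days and were listed in at most 4 of 6 mice.

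Romboutsia, a peptostreptococcal genus of the small intestine, was listed in 16 of 17 samples and was missing only from mouse 593 at 29 dpi. It averaged 5.44% ± 3.20, 3.73% ± 2.48 and 3.89% ± 2.43 at 14, 19 and 29 dpi, with edgeR adjusted p-values of 0.929 for 29 against 14 dpi and 0.981 for 29 against 19 dpi. Naive and CFA mice had none listed on these days. Before immunization, however, it was listed in 6 of 6 CFA mice at 2.85% ± 1.70, in 2 of 6 EAE mice at 0.528% ± 0.842 and in 1 of 6 naive mice. Lactobacillus, a lactic acid producer, stayed low, at 1.14% ± 0.809, 1.60% ± 2.40 and 2.61% ± 2.07. EAE mice had 31.5% ± 8.26 (n = 6) before immunization, and at 29 dpi naive mice had 31.8% ± 18.5 (n = 6) and CFA mice 9.97% ± 2.27 (n = 5). Oscillospiraceae and Anaeroplasmataceae stayed at or below 4.08% and 2.05% in every sample and were not called.

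Anaerostipes, a butyrate producer, was carried mainly by mice 588 and 589, which had 2.45% and 6.22% at 14 dpi, then 5.90% and 4.74% at 19 dpi, then 4.31% and 7.14% at 29 dpi. Mouse 591 had 0.881% at 14 dpi and no other EAE sample listed it. Part of this was the main Coprococcus sequence, which was deposited under both names. The sequence named Anaerostipes alone was absent from mouse 591 and made up 4.13% and 4.01% in mice 588 and 589 at 19 dpi. Coprococcus, which also makes butyrate, averaged 1.30% ± 1.07, 2.48% ± 2.14 and 2.14% ± 1.73 at 14, 19 and 29 dpi (edgeR adjusted p = 0.973 for 29 against 14 dpi). The butyrate producers fixed as a list of 10 names matched 8 taxa here, of which 7 were counted, and summed to 8.53% ± 3.57, 8.04% ± 4.15 and 8.03% ± 5.65 of counts at 14, 19 and 29 dpi. The list took Eubacterium by its genus name, though all its variants here were named E. coprostanoligenes, for which butyrate production was not examined. Eubacterium gave means of 3.08%, 1.44% and 0.595% to these sums, so the near-level total includes its lower share at 29 dpi. None of the 7 was called between any days by edgeR or DESeq2. Their median change from 14 to 29 dpi was -0.00179 points, beside 0.0560 for all 51 genera tested.

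The mucus and polysaccharide users matched 3 of 7 names, Akkermansia, Muribaculum and Prevotella, with sums of 22.1% ± 14.0, 16.9% ± 4.39 and 9.55% ± 8.35. Naive mice had 22.9% ± 18.2, 32.2% ± 10.1 and 26.6% ± 17 on the same days. EdgeR called none of the 3 at the genus rank. DESeq2 called Akkermansia lower and Muribaculum higher for 29 against 14 dpi, Akkermansia lower for 29 against 19 dpi and Muribaculum higher for 19 against 14 dpi. Of the 13 families that the study names, 12 were tested, and edgeR called 1 higher and 1 lower for 29 against 19 dpi and none for 29 against 14 dpi. For the latter DESeq2 called 1 higher and 2 lower. Of the study's 12 genus names, 12 taxa were tested and edgeR called none, while DESeq2 called Muribaculum higher and Ruminiclostridium lower at both 19 and 29 dpi than at 14 dpi. The study chose both lists on these samples, so they are not independent evidence.

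No change in alpha diversity was detected. The Shannon metric over trimmed sequences was 2.81 ± 0.241 (n = 5), 2.88 ± 0.510 (n = 6) and 2.69 ± 0.484 (n = 6) at 14, 19 and 29 dpi. The paired change was -0.113 from 14 to 29 dpi (exact sign-flip p = 0.5625, smallest possible 0.063) and -0.185 from 19 to 29 dpi (p = 0.375, smallest possible 0.031). The number of variants averaged 42.8 ± 13.1, 44.8 ± 18.6 and 53.0 ± 17.6, with paired changes of 7.80 (exact sign-flip p = 0.125) and 8.17 (p = 0.3125).

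Composition shifted within each mouse by a Bray-Curtis distance of 0.558 ± 0.132 (n = 5) from 14 to 29 dpi and 0.508 ± 0.121 (n = 6) from 19 to 29 dpi, where 0 is an identical and 1 a fully different sample. Naive mice shifted by 0.482 ± 0.102 and 0.464 ± 0.0990 (n = 6), and CFA mice by 0.611 ± 0.127 and 0.437 ± 0.0655 (n = 5). Exact permutation tests of EAE against naive mice gave p = 0.303 and 0.528, and against CFA mice p = 0.548 and 0.281, so a larger shift in EAE mice was not detectable with these numbers of animals. A mouse at 29 dpi was nearer to itself at 14 dpi than to other EAE mice on average, 0.558 against 0.612, with a one-sided exact permutation p of 0.0167 that became 0.100 over the 6 distance tests. From 19 dpi the distances were 0.508 and 0.547 (one-sided exact permutation p = 0.167). The closest 2 EAE samples of any single day were 0.270 apart.

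**Figure D4:**
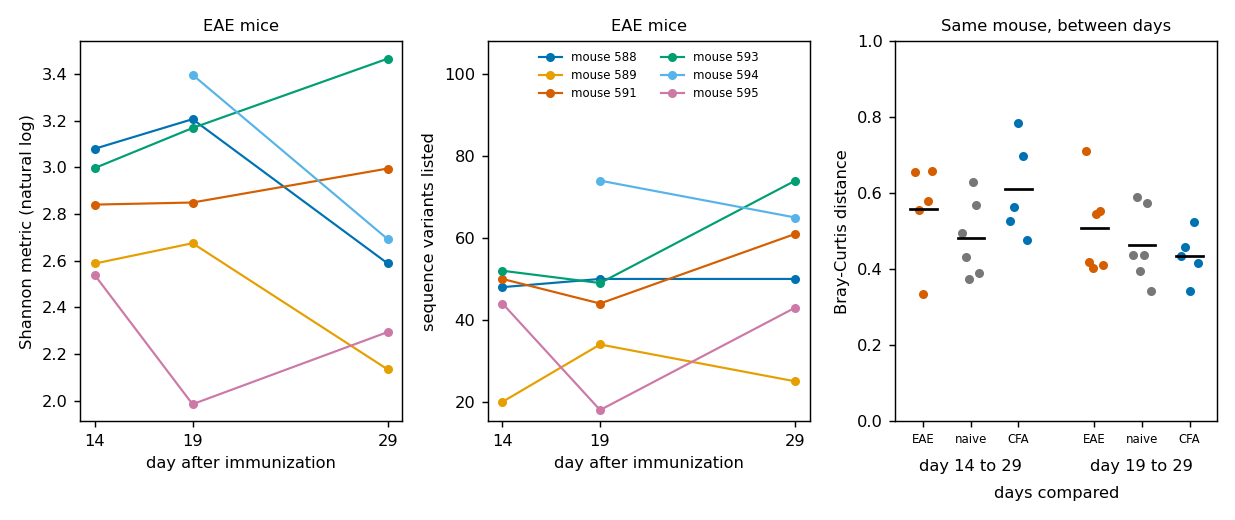
Shannon metric and number of sequence variants per EAE mouse at 14, 19 and 29 dpi, and Bray-Curtis distance (0 to 1) of each mouse to itself between days for EAE, naive and CFA mice. The EAE distances run from 0.337 to 0.659 for 14 to 29 dpi and overlap those of both control groups.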

How the data were processed

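Fecal 16S V3 to V4 amplicons were sequenced by the authors on an Illumina MiSeq, inferred as amplicon sequence variants (ASVs) with DADA2, and deposited as counts per ASV and sample, not scaled. Taxonomic names were curated by the authors from several databases. Of 2295 ASVs, 2274 held both primers, and trimming these left 507 distinct sequences, whose counts were summed. A variant in the text is such a sequence. CFA mouse 548 was dropped at 29 dpi, since its row summed to 0, and 2 water controls were not analysed here. Mice are separate animals, but the cages that held several of them are not labelled per sample, so cage and treatment cannot be told apart. The tests between days and the counts of mice also take each mouse as independent, though some shared a cage. Amplified reads are not independent molecules.

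Counts of families, genera and variants in at least 3 samples were tested with edgeR 4.0.16 (quasi-likelihood, TMMwsp factors, day and mouse) in R 4.3.3, with Benjamini-Hochberg adjustment and a threshold of 0.05. The mouse number in the titles gives the pairing, since it names the same animal. Differences between treatments came from a fit with naive and CFA mice. Single values were tested with exact permutation tests, two-sided unless stated, in Python 3.11.15 with SciPy 1.17.1. Alternatives were no replicate block, wider fits, total counts, DESeq2 1.42.0, no filter, each mouse left out, percents, and ASVs as deposited. Leaving out the 2 samples under 20000 counts and the permutation of changes between treatments were chosen after seeing the data. The scripts were tested on simulated data. Taxa named are families of at least 1% on a day, the 12 genera of highest mean, those called by edgeR, and fixed lists, with genera called by DESeq2 alone added after seeing the data. Members and lists were chosen with earlier results of these data known.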

Additional observations from a re-analysis of the deposited data

Results flagged for a closer look

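In groups of 5 or 6 mice, a sample stood apart from the others in 9 of 84 groups tested. Chance would flag about 1 in 20 independent groups. Families and their genera share counts here and many percents are 0, so no excess of stray samples can be read from this. At 14 dpi, mouse 589, 1 of the 2 samples of lowest depth, had 14.5% Ruminococcus (others 2.39% to 3.795%), 5.08% Lachnospiraceae_NK4A136/Hungatella (others 0.871% to 1.64%) and 20 sequence variants (others 44 to 52). At 19 dpi, mouse 589 had 6.34% Lactobacillaceae and mouse 588 had 31.5% Ruminococcaceae. At 29 dpi, mouse 591 had 1.44% Porphyromonadaceae (others 0% to 0.0180%), which was a sequence also named Muribaculum, and 7.33% Verrucomicrobiaceae, all of it Akkermansia, where the other 5 mice had none, and mouse 594 had 11.6% Ruminococcaceae_UCG-014. The change of Verrucomicrobiaceae, and equally of Akkermansia, was lower in EAE than in naive mice by edgeR, which tests log abundance. The differences in mean change were -22.6 points from 14 to 29 dpi and -6.26 points from 19 to 29 dpi. On these points the exact permutation test, chosen after seeing the data, did not call the family (adjusted p = 0.109 and 0.833).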

How the results depend on the processing

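Beside 2 families called for 29 against 19 dpi, the count was 0 with no replicate block, with no block over 15 groups, under total counts, with no filter, without the samples under 20000 counts (chosen after seeing the data) and by the sign-flip test, and 1 with control mice in the fit and by DESeq2. The count was 0 to 1 without a mouse. The 0 by the sign-flip test was nearly fixed in advance, since 6 pairs cannot give a p below 0.031 before adjustment. For 29 against 14 dpi, the 0 families became 1 with control mice in the fit, 3 by DESeq2 and 1 without the shallow samples, with 0 to 2 without a mouse. For 19 against 14 dpi, DESeq2 gave 1. For genera at 29 against 14 dpi, 0 became 3 with control mice in the fit (Akkermansia, Muribaculum, Ruminococcaceae_UCG-013), 1 under total counts, 8 by DESeq2 and 1 without the shallow samples, with 0 to 2 without a mouse. At 29 against 19 dpi it became 1 with control mice, 1 under total counts and 5 by DESeq2, with 0 to 1 without a mouse. At 19 against 14 dpi it became 1 with control mice (Muribaculum) and 5 by DESeq2. Without mouse 589, Verrucomicrobiaceae and Muribaculaceae were both called for 29 against 14 dpi.

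The 1 variant called for 29 against 14 and for 29 against 19 dpi was lost (0) with no replicate block, over 15 groups and with ASVs as deposited. DESeq2 called 22 and 12, and the fits without the shallow samples 4 and 2. Without a mouse the counts were 1 to 3 in both.

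For the change against naive mice, the 1 family became 0 with no replicate block and 2 by permutation (14 to 29 dpi) and 0 and 0 (19 to 29 dpi), with 0 to 1 without a mouse. The 1 genus became 2 without the shallow samples and 4 by permutation (14 to 29 dpi), and 2 with no replicate block and 0 by permutation (19 to 29 dpi), with 0 to 1 without a mouse. For 14 to 29 dpi the family call was lost without mouse 588, 593, 594 or 595 and the genus call without 588 or 593. For 19 to 29 dpi both held only without mouse 591. Against CFA mice, 0 families became 1 and 1 with no replicate block and 4 and 2 by permutation, and 0 genera became 2 and 3 with no replicate block.

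With ASVs as deposited, the Shannon change reversed to 0.125 (exact sign-flip p = 0.5) and 0.395 (p = 0.344), the excess of the EAE over the naive shift was 0.165 (exact permutation p = 0.0433) and 0.175 (p = 0.0130), and the same-mouse difference from 19 dpi reversed to 0.0320. Without the shallow samples the same-mouse difference from 14 dpi was -0.0310 (exact permutation p = 0.0833). Leaving out a mouse gave 0.0508 to 0.131 for the shift of EAE over naive mice from 14 dpi, past the threshold without mouse 591, and -0.0777 to 0.00280 against CFA mice, reversed without mouse 591. With 5 pairs the exact sign-flip test cannot go below 0.063, and so cannot pass the threshold. With 6 pairs it cannot go below 0.031, and after adjustment over families or genera it passes only if most of them sit there. The cause of these differences was not tested.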
